A study of Rattus norvegicus with 6 samples.

Results

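Ldha and Pdk3 act where pyruvate can take different routes, and both were read on a small-RNA array of rat pancreatic islets. All probes whose accession is the RefSeq transcript of either gene were taken, which gave 4 probes for Ldha and 1 for Pdk3 out of 39886 non-control probes. They are 2 of the 38 genes that could be named among the transcript probes. Most of the others (39727) are for PIWI-interacting RNAs (piRNAs), and 88 are for rat transcripts. The 2 genes were chosen with the strain comparison of these arrays known, so their strain differences are given as a description with no p-value.

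Islet RNA came from 3 samples of Goto-Kakizaki (GK) rats and 3 samples of Wistar rats, all aged 3 months, with 1 sample per array. The GK strain develops diabetes without obesity and was derived by selective breeding of Wistar rats, and Wistar rats served as the controls. No treatment or engineered allele is given for either strain. The labels say that islet RNA was isolated from each sample separately, and that it was labelled at the 3' end with the dye Cy3 by RNA ligase. The RNA itself was thus labelled, with no copying into cDNA, and whole transcripts and fragments of them cannot be told apart on such an array. In bulk islet RNA, fewer cells of a type and less RNA per cell cannot be told apart either.

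Pyruvate is the end product of glycolysis. Lactate dehydrogenase A, the product of Ldha, reduces it to lactate and regenerates NAD+, which lets glycolysis go on without mitochondria. The pyruvate dehydrogenase complex instead turns pyruvate into acetyl-CoA for the citrate cycle, and the kinases of the Pdk family, Pdk3 among them, phosphorylate and inhibit that complex. In healthy beta cells, the insulin-secreting cells of the islet, Ldha is known to be kept at a very low level, and most pyruvate carbon enters mitochondria. Both genes are known targets of the hypoxia-inducible factor HIF-1 in human cells.

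The promoter windows of the 2 genes are shown because 1 probe of each gene had GK values wholly above Wistar values, and both genes are known HIF-1 targets. The sequences are from RefSeq, build GRCr8, and run 5' to 3' on the gene's strand, from 250 bases before the transcript start to 50 bases after it. Capitals mark ACGTG, a form of the core of the HIF-1 recognition sequence, searched on both strands (as ACGTG or CACGT). Other forms of that core were not searched.
Ldha promoter, chr1:106507842-106508141, + strand: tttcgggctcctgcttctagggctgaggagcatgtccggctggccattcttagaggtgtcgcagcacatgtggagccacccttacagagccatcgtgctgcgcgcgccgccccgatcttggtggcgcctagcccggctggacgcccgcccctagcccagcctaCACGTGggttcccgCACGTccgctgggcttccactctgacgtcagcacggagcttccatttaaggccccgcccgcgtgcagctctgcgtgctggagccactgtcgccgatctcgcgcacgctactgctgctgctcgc
Pdk3 promoter, chrX:62547322-62547621, - strand: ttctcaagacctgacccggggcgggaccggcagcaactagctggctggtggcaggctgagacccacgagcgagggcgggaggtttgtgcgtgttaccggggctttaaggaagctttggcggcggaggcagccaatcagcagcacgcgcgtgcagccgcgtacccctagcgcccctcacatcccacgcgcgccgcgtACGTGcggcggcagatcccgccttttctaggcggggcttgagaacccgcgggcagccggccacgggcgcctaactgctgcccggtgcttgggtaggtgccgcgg
The Ldha window held 3 matches, starting at -87, -86 and -73 from the transcript start, and the matches at -87 and -86 overlap in 1 palindrome. The Pdk3 window held 1 match, at -54. Of 33469 rat promoter windows of the same length, 19.3% held at least 1 match, and 7.62% held 2 or more, counted in the same way. A match is a description of the letters and says nothing about binding in these islets.

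A probe counted as detected on an array where at least 50% of its spots (10 for each Ldha and Pdk3 probe) carried the scanner software's flag for a signal well above background. The detection floor of an array is the lowest signal of its detected probes. The signals are background-subtracted intensities in arbitrary units and are not normalised between arrays. For comparisons, log2 signals were set relative to each array's 75th percentile over the 7795 probes detected on all 6 arrays. That percentile lay at a signal of 199.7, 151.1 and 141.7 on GK 1, GK 2 and GK 3, and at 238.7, 196.9 and 202.1 on Wistar 1, Wistar 2 and Wistar 3. By their scan identifiers in the file headers, GK 1 and all Wistar arrays lay on slide 1 and GK 2 and GK 3 on slide 2. A comparison of strains was thus also in part a comparison of slides. GK 2 stood apart by its brighter dim probes, with a median signal over all probes of 7.87, against 2.43 to 3.42 on the other arrays. Of the 30 marker names listed for islet and other pancreatic cell types, 1, B2m, was found among the transcript probes with a gene symbol. The microRNA probes of the array were not searched for markers. The labelled tissue was thus not checked against its defining markers. B2m, the light chain of MHC class I, is present on most nucleated cells, and its 3 probes had log2 differences between the strains of 0.51 to 1.75. The part of B2m-rich cells in the values below was not tested.

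Pdk3 gave a clear signal on every array, and after scaling its GK values were higher than its Wistar values. The probe A_44_P443343 had a processed signal of 276.0, 133.8 and 104.7 on GK 1, GK 2 and GK 3, against 117.7, 57.7 and 48.6 on Wistar 1, Wistar 2 and Wistar 3. GK 1 was the brightest array for this probe, and before scaling the groups overlapped, since Wistar 1 exceeded GK 3. On the scaled log2 axis the values were 0.47, -0.18 and -0.44 in GK and -1.02, -1.77 and -2.05 in Wistar. After scaling, all 3 GK arrays lay above all 3 Wistar arrays. The scaled mean was -0.05 ± 0.46 in GK islets and -1.61 ± 0.53 in Wistar islets (SD, n = 3 each), a log2 difference of 1.57 (SE 0.37) or 2.96-fold. The gap between the means was thus larger than either SD.

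The spots of the Pdk3 probe repeated each other closely. All spots left after outlier flags were removed, 8 to 10 per array, had the flag, and the SD of their log2 signals lay between 0.051 and 0.10 on each array. That was smaller than the SD between arrays of a strain, 0.46 in GK and 0.53 in Wistar. On slide 1 alone, GK 1 exceeded the mean of the Wistar arrays by 2.08 on the log2 scale. GK 2 and GK 3, on slide 2, exceeded it by 1.31 on average. GK 1 was the only GK array on slide 1 and had the highest value of this probe. Differences between slides and differences between single arrays thus cannot be told apart here.

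**Figure D1:**
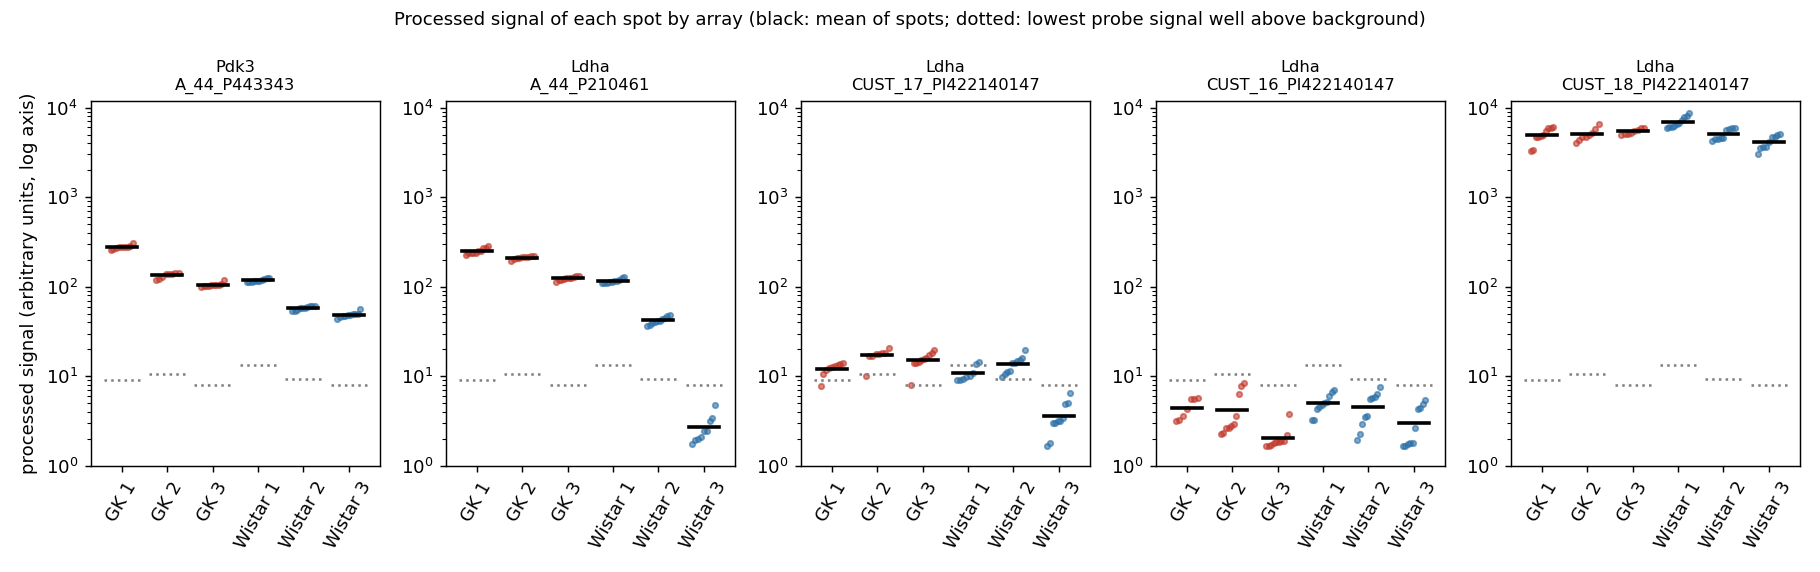
Processed signal (log axis, arbitrary units) of the spots of each Pdk3 and Ldha probe on the 6 arrays, GK in red and Wistar in blue, without outlier spots. Black bars are the mean of the spots and dotted grey lines the detection floor of that array. The Ldha probe A_44_P210461 drops to 2.69 on Wistar 3, under that array's floor of 8.07, whereas CUST_18_PI422140147 stays between 4151 and 6931 on all arrays.

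Ldha was read by 4 probes that did not give 1 answer. Differences are compared between these probes, not levels, since brightness depends on the probe as well as on the RNA. The probe A_44_P210461 had the widest strain difference, CUST_17_PI422140147 a smaller one close to background, and CUST_18_PI422140147, bright on all arrays, a difference near its error. CUST_16_PI422140147 gave no signal above background. The positions and sequences of these probes within the transcript were not used here, and their reading of related lactate dehydrogenase genes was not tested.

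The Ldha probe A_44_P210461 had a processed signal of 250.1, 210.4 and 124.2 on GK 1, GK 2 and GK 3, against 116.0, 42.2 and 2.69 on Wistar 1, Wistar 2 and Wistar 3. All GK arrays lay above all Wistar arrays, before and after scaling. The scaled log2 mean was 0.20 ± 0.35 in GK islets and -3.17 ± 2.72 in Wistar islets (SD, n = 3 each), a log2 difference of 3.37 (SE 1.20). On slide 1 alone GK 1 exceeded the Wistar mean for A_44_P210461 by 3.49, and GK 2 and GK 3 exceeded it by 3.31. Its Wistar SD was at the 99.7th percentile of tested probes, and its GK SD at the 47.8th. Among the 70 tested transcript probes, A_44_P210461 had the highest GK-minus-Wistar difference, Pdk3 the 10th, CUST_17_PI422140147 the 13th and CUST_18_PI422140147 the 35th highest. Without Wistar 3, A_44_P210461 ranked 4th and Pdk3 7th.

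Much of the size of that difference came from Wistar 3. There the 9 spots left after outlier flags ran from 1.77 to 4.77 and 0 of them had the flag, while the detection floor of that array was 8.07. On Wistar 2 the same probe's spots ran from 36.2 to 49.0, and all 10 had the flag. Without Wistar 3 the log2 difference for A_44_P210461 was 1.84, and with signals of undetected probes raised to the floor of their array it was 2.84, which ranked 2nd among the transcript probes. Local background around the spots of all Pdk3 and Ldha probes averaged 18.1 to 18.8 on Wistar 3 and 18.0 to 21.8 over the other 5 arrays. Pdk3 remained measurable on Wistar 3 at 48.6. In all, 183 probes were detected on the other 5 arrays and not on Wistar 3, 2 of them for transcripts, A_44_P210461 included. The same count was 28 for GK 1, 475 for GK 2, 194 for GK 3, 496 for Wistar 1 and 37 for Wistar 2. Among transcript probes it was 1 for Wistar 2 and 0 for Wistar 1 and for each GK array.

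The Ldha probe CUST_17_PI422140147 was dim everywhere. It gave 12.1, 17.1 and 15.3 on GK 1, GK 2 and GK 3, against 10.8, 13.7 and 3.57 on Wistar 1, Wistar 2 and Wistar 3. It was detected on each of the 3 GK arrays and on 1 Wistar array, Wistar 2. On the scaled axis the groups overlapped, because Wistar 2 lay above GK 1, and 8 of the 9 pairs of a GK and a Wistar array had the GK value higher. The scaled log2 mean was -3.46 ± 0.50 in GK and -4.71 ± 1.01 in Wistar (SD, n = 3 each), a difference of 1.25 (SE 0.53). Wistar 3 was again the lowest array, and without it the difference for CUST_17_PI422140147 was 0.69. It was 0.40 with normexp, a background correction that keeps dim signals from spreading on the log scale. On slide 1 alone GK 1 exceeded the Wistar mean by 0.67, and GK 2 and GK 3 exceeded it by 1.53. This probe entered the fit mainly through its GK arrays, as a probe had to be detected on at least 3 of the 6 arrays.

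CUST_18_PI422140147, also an Ldha probe, was bright and nearly level. Its processed signal was 4921, 5029 and 5427 on GK 1, GK 2 and GK 3, against 6931, 5063 and 4151 on Wistar 1, Wistar 2 and Wistar 3. The Wistar arrays spanned the GK arrays. The scaled log2 mean was 4.98 ± 0.33 in GK and 4.63 ± 0.25 in Wistar (SD, n = 3 each), a difference of 0.34 (SE 0.28) or 1.27-fold. The sign turned with the scaling, at -0.14 when the percentile was taken over every non-control probe (the all-probe percentile) and -0.04 with no scaling. On slide 1 alone GK 1 differed from the Wistar mean by -0.01, and GK 2 and GK 3 by 0.52. On Wistar 3, where A_44_P210461 was at background, CUST_18_PI422140147 had the flag on all 9 spots kept.

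The last Ldha probe, CUST_16_PI422140147, was not well above background on any array. Its signals were 4.47, 4.19 and 2.04 in GK and 5.01, 4.53 and 3.03 in Wistar, and no fold is given for it. The probe was left out of the fit by the filter on dim probes.

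Of the 5 Ldha and Pdk3 probes, 4 entered the fit, and 2 of these 4 had GK values wholly above Wistar values. Over all tested probes, 12.5% had their 3 GK values above their 3 Wistar values, and so had 23 of the 70 tested transcript probes (32.9%). Nothing is read from the count of 2, because the genes were chosen on this contrast. The share over all tested probes moved with the settings, to 22.7% with normexp, 6.52% with quantile normalisation, 3.13% with no scaling and 2.02% with the all-probe percentile. A_44_P210461 kept the 2 strains apart under all 6 scaling and background settings compared, the main one included. Pdk3 did so under 4 of these 6, and its groups overlapped with no scaling and with the all-probe percentile.

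The probes of Ldha disagreed more than those of the other genes compared only with A_44_P210461 counted among them. The 9 genes with a symbol and at least 2 tested probes had a spread between their highest and lowest log2 difference of 0.11 (Actb) to 3.03 (Ldha). B2m came next, at 1.24, then Gapdh at 0.68. On the tiled probes alone (names starting with CUST) the Ldha spread was 0.90, below the 1.24 of B2m. Part of the Ldha spread rests on the single Wistar 3 array, as above. The ranking is a description, since Ldha was chosen with these values known.

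**Figure D2:**
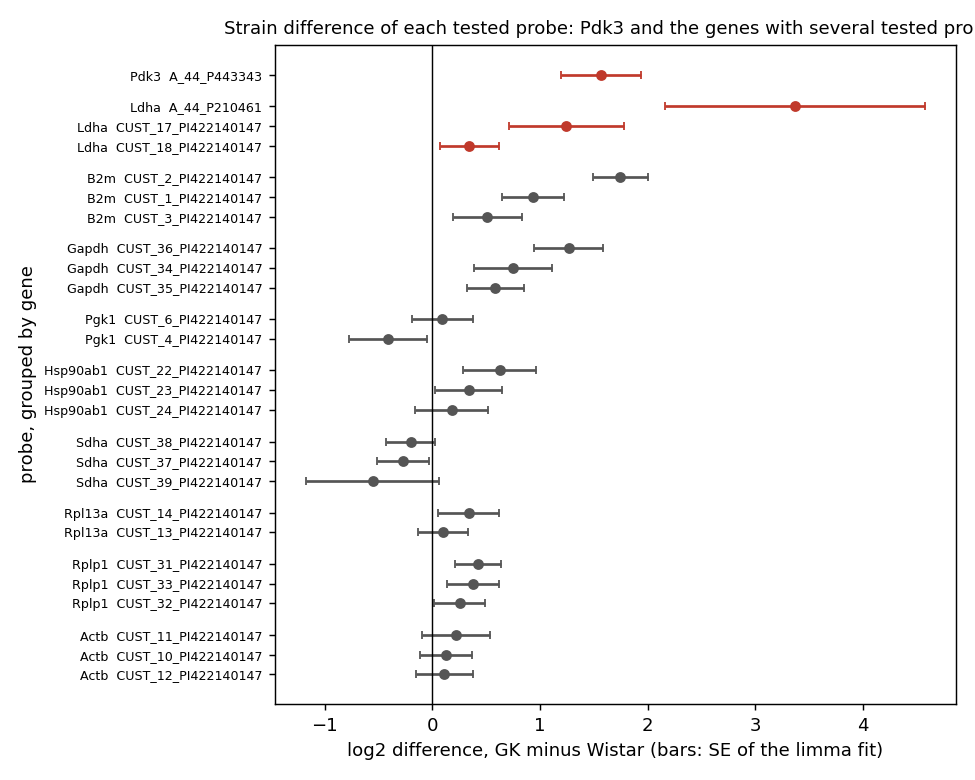
GK-minus-Wistar log2 difference of each tested probe (points) with the SE of the limma fit (bars), for Pdk3 and the 9 genes with several tested probes, Pdk3 and Ldha in red. The Ldha probes run from 0.34 to 3.37, while the Actb probes lie between 0.11 and 0.22.

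Other genes of glucose breakdown were few among the transcript probes with a gene symbol (61 of 88). Of a list of 38 genes of glycolysis, pyruvate use and its regulators, 3 were found there, with 9 probes. These were Gapdh and Pgk1, both enzymes of glycolysis downstream of the triose phosphates, and Sdha, a subunit of succinate dehydrogenase in the citrate cycle. Probes without a symbol were not searched for the other listed genes. The list was written with earlier results of these arrays known. In limma's fit over all tested probes, 0 of its 8 tested probes had an adjusted p under 0.05 in either direction, while 5 of the 11407 (0.0438%) did. At an unadjusted p under 0.05 there was 1 of the 8, the Gapdh probe CUST_36_PI422140147, which passed the filter on dim probes only through its GK arrays. In the same limma fit 1234 of the 11407 tested probes and 16 of the 70 tested transcript probes had an unadjusted p under 0.05. The median log2 difference of the 8 listed probes was -0.05, against 0.17 over all tested probes and 0.34 over the 70 tested transcript probes.

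Gapdh had 3 positive differences that missed the threshold. Its probe CUST_36_PI422140147 had signals of 16.8, 22.1 and 9.89 in GK, against 9.87, 7.53 and 7.84 in Wistar. It was detected on 3 GK arrays and 0 Wistar arrays. The scaled log2 mean in GK lay at least 2.01-fold above that in Wistar, a bound on the means and not on single arrays. For that bound each Wistar level was taken as the array's floor, or the probe's own signal where that was higher. That bound was not tested. The other Gapdh probes had differences of 0.75 (SE 0.36) for CUST_34_PI422140147 and 0.59 (SE 0.26) for CUST_35_PI422140147, and limma gave them adjusted p of 0.462 and 0.455. On slide 1 alone GK 1 exceeded the Wistar mean by 0.88 to 1.09 over the 3 Gapdh probes.

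The tested Pgk1 and Sdha probes missed the threshold too. Pgk1, phosphoglycerate kinase, had -0.41 (SE 0.36) and 0.09 (SE 0.28) for its tested probes CUST_4_PI422140147 and CUST_6_PI422140147. The remaining Pgk1 probe, CUST_5_PI422140147, was not well above background on any array. The bright Sdha probe CUST_38_PI422140147 had signals of 481.9, 271.9 and 290.4 in GK, against 561.8, 470.7 and 487.0 in Wistar, and a scaled log2 difference of -0.20 (SE 0.23, adjusted p = 0.696 in the limma fit). The Sdha probe CUST_37_PI422140147 had -0.27 (SE 0.24). CUST_39_PI422140147, also for Sdha, was detected on 1 GK array and 2 Wistar arrays and had -0.55 (SE 0.62). Leaving out 1 array gave CUST_39_PI422140147 -1.19 to -0.00067, with -0.00067 without Wistar 3, and its sign turned with normexp (0.049) and within slide 1 (0.15). The signs of CUST_37_PI422140147 (0.11) and CUST_4_PI422140147 (0.018) turned with normexp too. That of CUST_38_PI422140147 turned within slide 1 (0.017), and that of CUST_6_PI422140147 with no scaling (-0.29). The Sdha groups overlapped for every probe after scaling. With no scaling each of these differences moves by the same -0.38.

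Likeness to the pattern over the 6 arrays was measured by Pearson's r of scaled log2 values, for Pdk3 and CUST_18_PI422140147 the probes of these genes detected on every array. The r values are descriptions over 6 arrays that share 2 strains, 2 slides and 1 scaling. Of 7755 candidates, those named are the highest among the transcript probes with a gene symbol, by gene, and among the piRNA probes. For Pdk3 the most alike transcripts were Slc28a2, a nucleoside transporter (r = 0.983), and the Gapdh probe CUST_35_PI422140147 (r = 0.976), and the most alike piRNAs DQ607788 (0.994) and DQ616240 (0.987). For the Ldha probe CUST_18_PI422140147 they were Ptk2b, an adhesion-related kinase (r = 0.841), and Hsp90ab1, a chaperone (0.809), and the piRNAs DQ733222 (0.996) and DQ741480 (0.991). With r above 0.95 there were 26 candidates for Pdk3 and 87 for CUST_18_PI422140147.

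**Figure D3:**
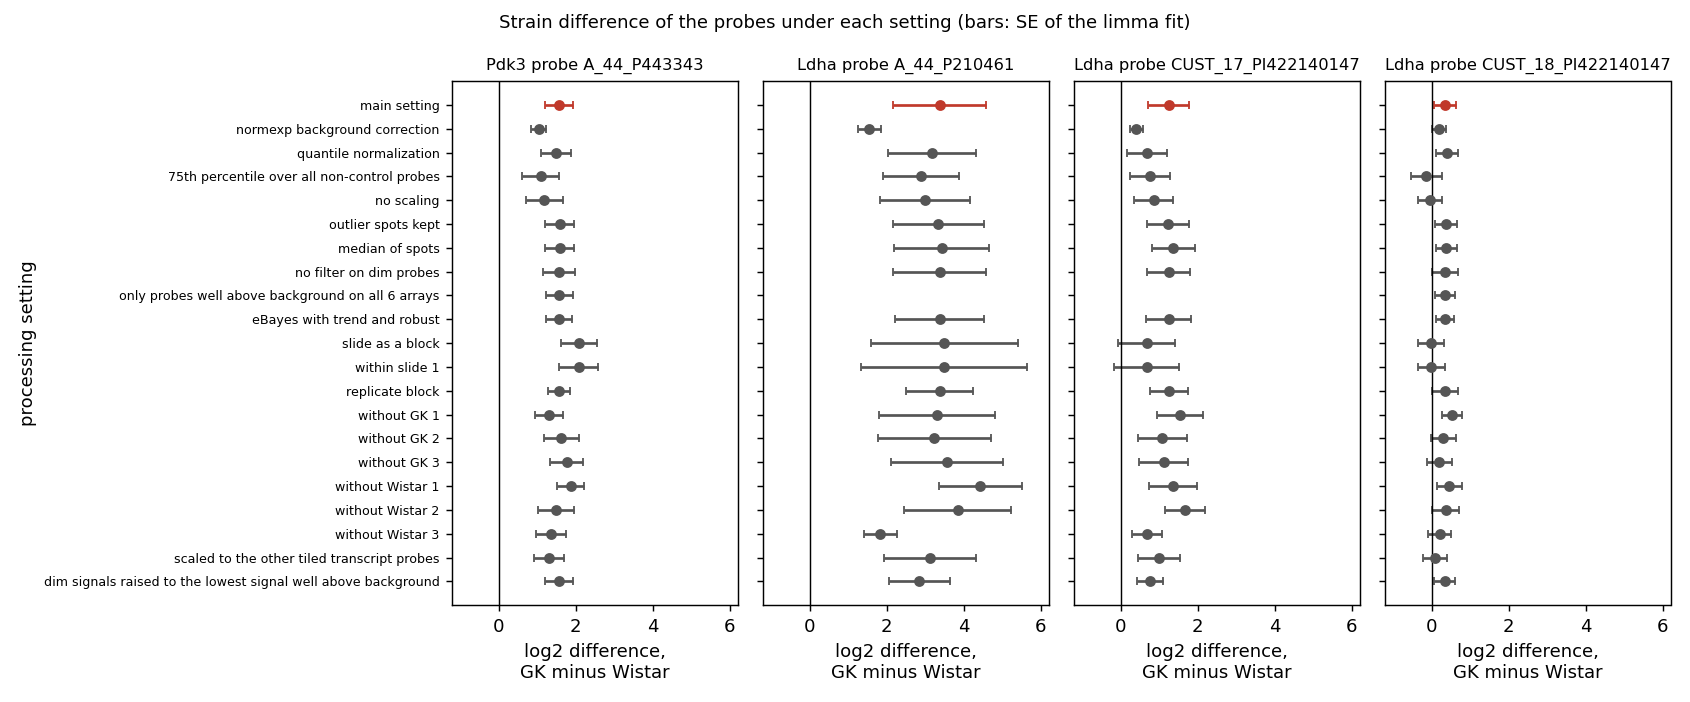
GK-minus-Wistar log2 difference (points, with the SE of the limma fit) of the 4 tested Pdk3 and Ldha probes under the main setting (red) and each alternative. Pdk3 stays between 1.04 and 2.08 and the Ldha probe A_44_P210461 between 1.55 and 4.43, whereas CUST_18_PI422140147 crosses 0.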

How the data were processed

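Islet total RNA of 3 GK and 3 Wistar samples was hybridised to 1-colour arrays. Per the file headers, the authors scanned them with Feature Extraction 11.0.1.1, and in the deposited processed signal intensity the background is subtracted array by array, with no normalisation between arrays. The other deposited scanner values used are the median intensity of each spot and of its local background, and 0 or 1 flags (other). The authors' series tables hold piRNA probes only and were not used.

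Spots with outlier flags were left out and the remaining spots of a probe averaged. Log2 values minus each array's 75th percentile were fitted for the 11407 probes detected (well above background on at least 50% of spots) on at least 3 arrays in limma 3.58.1 (lmFit, eBayes; R 4.3.3) on strain alone, with Benjamini-Hochberg adjustment. SEs are from this fit, and adjusted p-values without another name come from it. The number of arrays limits the precision, and no Pdk3 or Ldha spot was saturated. Names came from RefSeq accessions (61 of 88 transcript probes).

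The genes, the lists and the tests were chosen with earlier results of these data known. Text names all probes of the genes and of the listed pathway, and the most alike probes (2 transcripts and 2 piRNAs). The scaling to tiled transcript probes and the raising of dim signals were chosen after seeing the data. Normexp (offset 50) used median spot signals, the ones the files hold.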

Additional observations from a re-analysis of the deposited data

How the results depend on the processing

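The Pdk3 difference stayed positive under all 20 alternatives, from 1.04 to 2.08, and differed from the reported 1.57 by more than 1 SD with normexp (1.04), with the slide as a block (2.08) and within slide 1 (2.08). The Ldha probe A_44_P210461 stayed positive under the 19 that gave it a value, from 1.55 (normexp) to 4.43, and CUST_17_PI422140147 under 19, with 0.40 under normexp. CUST_18_PI422140147 was positive under 16 of 20, and was -0.14 with the all-probe percentile, -0.039 with no scaling and -0.012 both with the slide as a block and within slide 1. Leaving out 1 array gave 1.31 to 1.86 for Pdk3, 1.84 to 4.43 for A_44_P210461, 0.69 to 1.68 for CUST_17_PI422140147 and 0.21 to 0.52 for CUST_18_PI422140147. With the slide as a block GK 1 alone is compared with the Wistar arrays. With the replicate number as a block the differences were unchanged by construction (1.57 for Pdk3, 3.37, 1.25 and 0.34 for the Ldha probes). The numbers share no source in the labels, and same-numbered arrays deviated from their strain means with correlations of -0.026, 0.039 and 0.039.

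Over all probes limma called 5, against 15 with normexp, 14 with the all-probe percentile, 15 with scaling to 23 tiled transcript probes, 8 with eBayes using trend and robust, and 8 with outlier spots retained. It called 2 among the probes detected on every array. It called 0 with quantile normalisation, no filter, the slide as a block, within slide 1 and the replicate block, where 1004, 2512, 418, 390 and 1273 probes had an unadjusted p under 0.05. Leaving out 1 array gave 0 to 21, the 21 without GK 1 and 0 without any other, with 597 to 1312 probes at an unadjusted p under 0.05 for those 5 arrays. The cause of these changes was not tested. The listed pathway had 0 called probes under all 20. The median difference over all tested probes was 0.17, but -0.22 with no scaling, -0.31 with the all-probe percentile and -0.10 with quantile normalisation. Signal over background limits CUST_16_PI422140147, CUST_17_PI422140147 and, on Wistar 3, A_44_P210461.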
